A study of Mus musculus with 4 samples.

Results

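The 10 genes described here are T cell marker genes: Cd3d, Cd3e and Cd3g, Cd4 and Cd8a, Cd28, Lck, Il7r, Cd2 and Rag1. They were taken by gene symbol from 24063 symbols in the tables, and all 10 were measured. The list was drawn up with earlier results of these data known, including that such genes were lower after PNX, so their shared direction is not independent evidence. RNA was sequenced from lung endothelial cells (ECs) of C57BL6 mice of 8 weeks (C57BL6J in the study's methods). The cells were selected with magnetic beads carrying an antibody to CD31. One group of 2 libraries came from sham-operated mice, which had a thoracotomy without removal of lung, and the other from mice 7 days after left unilateral pneumonectomy (PNX). Each library pooled the cells of 2 mice that the labels call male, and no transgene is given for either group. For the surgery, the study's methods name ketamine and xylazine as anesthetics and meloxicam as an analgesic afterwards. The comparison asks how the RNA of these genes in the CD31-selected fraction differed between post-PNX and sham lungs.

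T cells recognise antigen through a receptor that is held at the surface by the CD3 chains, which carry its signal inward. CD4 and CD8 are coreceptors that bind MHC class II and class I, the kinase LCK starts the signal, and CD28 adds a second one. Naive T cells circulate through blood, lung and lymph nodes and depend on interleukin 7. ECs are not known to use the CD3 complex, and CD31 is also found on many leukocytes.

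The libraries held 50952879 and 45261208 counts in sham and 46783725 and 41367438 after PNX, with the transcript of most counts taken for each gene. A floor of 3 counts was worth 0.0589 to 0.0725 CPM (counts scaled to the library total), which covers counting error only. Pecam1, which encodes CD31, had 90946 ± 240 (SD, n = 2) normalized counts in sham and 90400 ± 294 (SD, n = 2) after PNX (edgeR adjusted p = 0.636). Ptprc, which encodes the leukocyte antigen CD45, was present as well, at 11566 ± 44.1 (SD, n = 2) and 11543 ± 171 (SD, n = 2) normalized counts, although the study describes the cells as CD45-negative by flow cytometry. Against the label of male mice, each library had 0 counts over the 44 genes of chromosome Y listed, and Xist, the RNA of the inactive X chromosome, had 31872 to 33792 normalized counts. These values were alike in both groups, and no library without this feature was at hand for comparison.

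RNA of the T cell marker genes was lower in the CD31-selected fraction of post-PNX than of sham lungs for all 10 genes. Each of the 10 passed an adjusted p of 0.01 in edgeR's quasi-likelihood test (Benjamini-Hochberg adjustment over the 16208 genes that passed the filter on low counts, which include all 10), where 27.8% of all genes tested were called lower in this way. With the study's added threshold of a log2 fold change beyond 1, there were 4 genes called lower, Rag1, Cd28, Cd8a and Cd4, against 1.66% of all genes. By edgeR none was higher with either rule (29.3% and 5.9% of all genes), nor at an unadjusted p under 0.05 (0 of 10), nor by DESeq2 (0 of 10). The median log2 fold change of the 10 genes was -0.82, beside 0.0012 over all genes tested. The groups did not overlap in any of the 10 genes, with both libraries after PNX the lower ones, as was so in 40.5% of all genes tested. In bulk RNA, fewer T cells in the fraction and less of these RNAs per cell cannot be told apart. With 2 libraries against 2, an exact permutation test of a single gene cannot give a two-sided p below 0.333, so the calls rest on the spread estimated across all genes. That spread was small, with a mean chi-square per gene between replicates of 1.77 in sham and 1.53 after PNX, not far above counting error alone. Small p-values here therefore need not reflect the spread between mice.

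**Figure D1:**
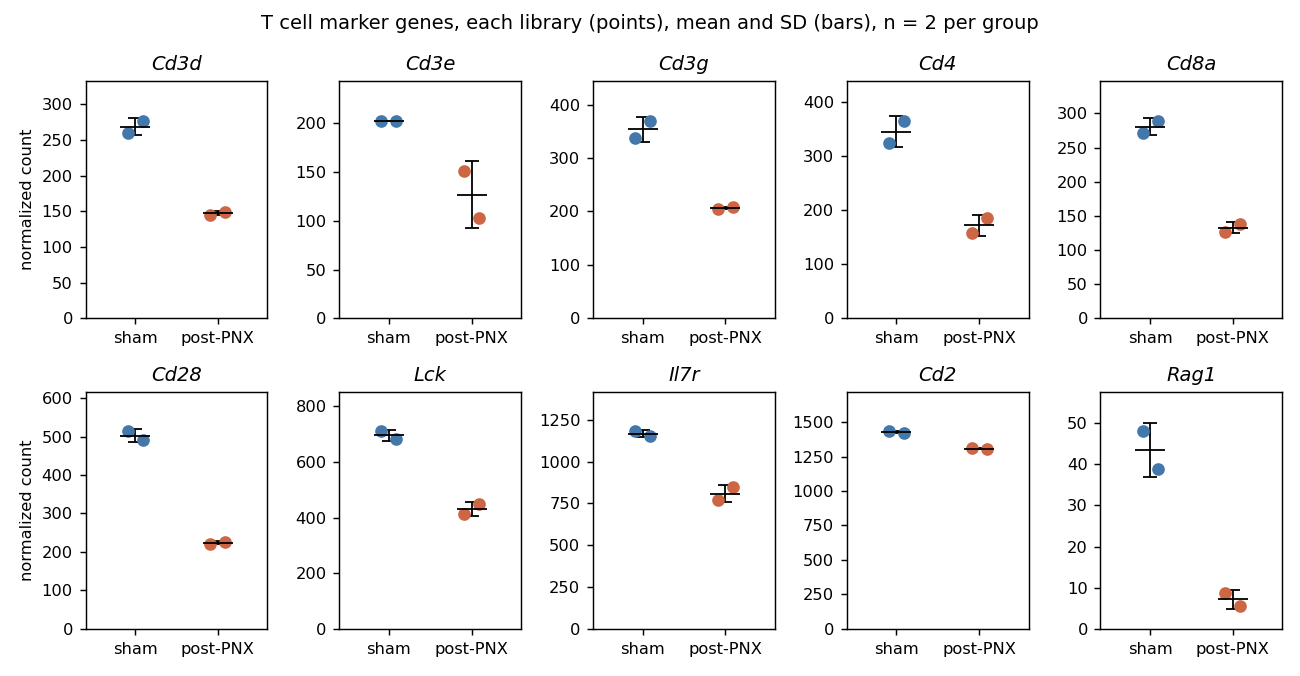
Normalized counts (vertical axes, from 0, own scale per gene) of the 10 T cell marker genes in the 2 sham (blue) and 2 post-PNX (orange) libraries, with group mean and SD as bars. In each gene both post-PNX points lie below both sham points, widely for Rag1 and by little for Cd2.

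The CD3 chains Cd3g, Cd3d and Cd3e form dimers that attach to the T cell receptor and carry the motifs that LCK phosphorylates. The genes lie together on chromosome 9 of mm10, Cd3g from 44969572 to 44980431, Cd3d from 44981769 to 44987052 and Cd3e from 44998735 to 45009663. Cd3g and Cd3d are read in opposite directions, and the transcript starts used for the windows shown here are 1355 bases apart. The starts used for Cd3d and Cd3e lie inside the outer bounds of those genes, so that these windows reach into the genes as given. The 250 bases before a RefSeq transcript start of each of the 3 follow, shown because these neighbours fell together. They are taken from RefSeq (GRCm38.p6, the assembly of mm10) and read 5′ to 3′ on the strand of the gene. Capitals mark matches on either strand to 4 motifs. The E box of basic helix-loop-helix factors was searched as CANNTG and the motif of GATA factors as AGATAA. That of TCF and LEF factors was searched as CTTTGA and that of RUNX factors as TGTGGT.
Cd3g, chr9:44980432-44980681, minus strand: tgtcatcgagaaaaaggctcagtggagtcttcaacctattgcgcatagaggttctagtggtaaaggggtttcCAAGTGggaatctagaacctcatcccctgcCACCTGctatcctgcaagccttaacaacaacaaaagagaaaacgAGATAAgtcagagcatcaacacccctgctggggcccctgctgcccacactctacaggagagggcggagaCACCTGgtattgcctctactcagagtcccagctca
Cd3d, chr9:44981536-44981785, plus strand: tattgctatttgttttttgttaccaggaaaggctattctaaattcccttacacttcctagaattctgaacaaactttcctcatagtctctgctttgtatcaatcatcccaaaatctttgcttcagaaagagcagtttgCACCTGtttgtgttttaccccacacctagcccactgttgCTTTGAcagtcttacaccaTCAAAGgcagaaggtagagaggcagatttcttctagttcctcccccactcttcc
Cd3e, chr9:45009612-45009861, minus strand: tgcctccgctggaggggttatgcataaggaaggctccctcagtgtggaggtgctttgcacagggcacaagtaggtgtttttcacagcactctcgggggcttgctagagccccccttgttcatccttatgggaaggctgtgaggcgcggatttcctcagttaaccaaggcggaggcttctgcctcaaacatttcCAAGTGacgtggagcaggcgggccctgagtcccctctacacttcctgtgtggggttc

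In these letters Cd3g held 3 E boxes and 1 GATA match, Cd3d 1 E box and 2 TCF/LEF matches and Cd3e 1 E box. A promoter window was found for 7 of the 10 genes, 8 windows in all since Lck has 2 starts. An E box was in 7 of the 8 windows, beside 66.2% of the 32851 windows of all genes. The ETS core GGAA, which is not marked, was in 8 of 8 beside 93.4%. TGTGGT was in 2 of 8 beside 14.0%, AGATAA in 1 of 8 beside 9.99% and CTTTGA in 1 of 8 beside 13.8%. These shares describe the letters alone.

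Cd3g, which encodes the gamma chain, had 337 and 370.04 normalized counts in the sham libraries and 205 and 208 after PNX. The groups were well apart, giving -0.77 ± 0.095 on the log2 scale (SE; edgeR adjusted p = 1.9e-10). Cd3d, the delta chain, had 260.0 and 277 in sham and 145 and 149 after PNX, giving -0.86 ± 0.11 on the log2 scale (SE; edgeR adjusted p = 4.8e-10). Cd3d after PNX was thus at 54.9% of its sham level. Cd3e, the epsilon chain, had 203 and 203 in sham and 151 and 103 after PNX, giving -0.66 ± 0.13 on the log2 scale (SE; edgeR adjusted p = 1.0e-05). Among the 3 chains, the post-PNX libraries differed most from each other in this gene, with raw counts of 154 and 92. Without the second post-PNX library the log2 fold change of Cd3e was -0.42, and without the first -0.98. None of the 3 chains reached the fold threshold.

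Both coreceptors fell, with a median log2 fold change of -1.05 beside -0.77 for the CD3 chains, a difference that was not tested. Cd4, which marks helper T cells and in mice is also found on some dendritic cells, lies on chromosome 6 from 124864693 to 124888247. It had 324 and 365 normalized counts in sham and 158 and 185 after PNX, giving -1.01 ± 0.10 on the log2 scale (SE; edgeR adjusted p = 3.1e-13). Its value lay at the fold threshold, and it was -0.92 without the second sham library and -0.89 without the first post-PNX library, which ends the call by fold. Cd8a, the alpha chain of the coreceptor of cytotoxic T cells, lies on the same chromosome from 71373427 to 71379171. It had 272 and 289.5 normalized counts in sham and 127 and 138 after PNX, giving -1.08 ± 0.11 on the log2 scale (SE; edgeR adjusted p = 6.4e-13). Cd8b1, the beta chain of the same coreceptor and chosen for this comparison after its values were seen, had a log2 fold change of -0.95 (edgeR adjusted p = 6.5e-11).

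Cd28, which encodes the main costimulatory receptor, and Lck, which encodes the kinase bound to the coreceptors, were more abundant in counts. Cd28, on chromosome 1 from 60746388 to 60773359, had 514 and 491 normalized counts in sham and 221 and 226 after PNX. The post-PNX level was 44.4% of that in sham, giving -1.17 ± 0.085 on the log2 scale (SE; edgeR adjusted p = 6.7e-19). Lck, on chromosome 4 from 129548344 to 129573641, had 710.2 and 681 normalized counts in sham and 414 and 450.1 after PNX, giving -0.69 ± 0.068 on the log2 scale (SE; edgeR adjusted p = 9.4e-14), short of the fold threshold. The microRNA gene Mir8119 lies within Lck and was counted separately at 65 and 53 counts in sham and 33 and 32 after PNX, and the 2 may share reads.

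Il7r and Cd2 had the smallest changes. Il7r encodes the receptor chain for interleukin 7, a survival factor of naive and memory T cells and of innate lymphoid cells, and lies on chromosome 15 from 9506159 to 9529941. It had 1181 and 1151 normalized counts in sham and 771 and 846 after PNX, giving -0.53 ± 0.053 on the log2 scale (SE; edgeR adjusted p = 1.0e-13). Cd2, an adhesion receptor that mouse B cells and natural killer cells carry as well as T cells, lies on chromosome 3 from 101275908 to 101287939. It had 1433 and 1424 normalized counts in sham and 1309 and 1307 after PNX, so that the post-PNX level was 91.5% of that in sham. The log2 fold change was -0.13 (95% interval -0.22 to -0.040, edgeR adjusted p = 0.00917). This call did not hold with DESeq2's Wald test (adjusted p = 0.105) or without any single library (adjusted p from 0.025 to 0.0481 by edgeR), and the direction turned with scaling to endothelial genes (log2 fold change 0.17, edgeR adjusted p = 0.00108).

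Rag1 had the fewest counts of the 10 and the largest fold change. It encodes a subunit of the recombinase that joins receptor gene segments in developing T and B cells, and lies on chromosome 2 from 101638252 to 101649532. The raw counts were 53 and 38 in sham and 9 and 5 after PNX, or 48.0 and 38.7 against 8.84 and 5.57 normalized counts, giving -2.56 ± 0.36 on the log2 scale (SE; edgeR adjusted p = 6.7e-09), with a wide 95% interval from -3.28 to -1.84. Rag2, the partner subunit, had 0 and 0 counts in sham and 0 and 2 after PNX, and Ptcra, a chain of the receptor of immature T cells, had at most 1 count in a library. Dntt, which adds bases at the joints, had 41 and 38 counts in sham and 18 and 19 after PNX (log2 fold change -0.97, edgeR adjusted p = 0.0029, or 0.034 with scaling to endothelial genes). The 250 bases before the Rag1 start, from the same RefSeq table and with the same marks, are shown because this gene had the largest fold change. Its 3 E boxes and 2 RUNX matches include 1 pair that overlaps, so that the capitals run together.
Rag1, chr2:101649533-101649782, minus strand: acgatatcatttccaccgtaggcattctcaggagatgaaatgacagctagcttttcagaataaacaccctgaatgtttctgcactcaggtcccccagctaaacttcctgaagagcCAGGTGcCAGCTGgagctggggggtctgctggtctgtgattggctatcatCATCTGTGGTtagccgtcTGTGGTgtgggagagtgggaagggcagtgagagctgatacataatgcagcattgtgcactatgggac

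Another scaling shifts all genes by nearly the same amount, so it sets the size of these changes. EC marker genes themselves were lower after PNX, with a median log2 fold change of -0.29 over 12 genes, and scaling to them moved the median of all genes tested to 0.30. Under that scaling the median of the 10 T cell marker genes was -0.52, and only Rag1 (log2 fold change -2.26) stayed past the fold threshold. Cd28, Cd8a and Cd4 were then at -0.87, -0.79 and -0.71, and Cd3e lost its call (log2 fold change -0.37, edgeR adjusted p = 0.0193). Cd2, at 0.17, was above 0 but below the median of all genes tested. Scaled to 9 genes shared by all leukocytes, the median of the 10 was -0.88 and the same number of genes, 4, passed both thresholds.

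**Figure D2:**
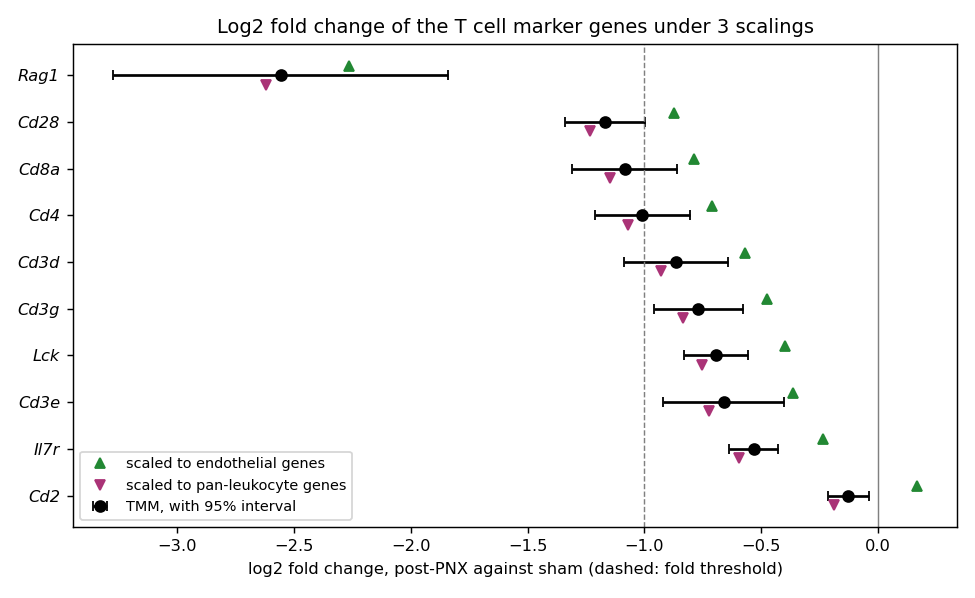
Log2 fold change of post-PNX against sham (horizontal axis, dashed line at the fold threshold of -1) for each T cell marker gene, with TMM scaling and its 95% interval (black), scaling to endothelial genes (green) and scaling to pan-leukocyte genes (purple). Green points lie to the right of black ones throughout, and only that of Cd2 (0.17) lies above 0.

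Levels of different genes can be compared per length, in the deposited TPM, which scales counts to transcript length and library total. In the sham libraries the order was Cd2 (43.3 ± 0.23 TPM), Il7r (12.6 ± 0.24), Cd3g (11.98 ± 0.78), Lck (11.1 ± 0.34), Cd3d (7.00 ± 0.31), Cd3e (4.90 ± 0.0052), Cd28 (4.04 ± 0.13), Cd4 (3.86 ± 0.32), Cd8a (3.11 ± 0.14) and Rag1 (0.226 ± 0.034; each SD, n = 2). The libraries of Il7r and Cd3g overlapped in this order, as did those of Cd28 and Cd4. After PNX Cd2 was at 38.7 ± 0.052 TPM, Il7r at 8.53 ± 0.55, Cd3g at 6.85 ± 0.068, Lck at 6.74 ± 0.40 and Cd3d at 3.75 ± 0.069 (SD, n = 2). Cd3e was at 2.99 ± 0.82 TPM, Cd4 at 1.88 ± 0.21, Cd28 at 1.75 ± 0.028, Cd8a at 1.43 ± 0.087 and Rag1 at 0.0366 ± 0.012 (SD, n = 2). Cd28 and Cd4 thus changed places within their spread, and Cd3g and Lck overlapped. All 10 were far below the EC gene Pecam1, at 954 TPM in sham.

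Ratios of counts within a library do not depend on any scaling. Cd4 per Cd8a was 1.19 and 1.26 in sham and 1.25 and 1.34 after PNX, so the groups overlapped and the mean went from 1.23 ± 0.048 to 1.29 ± 0.064 (SD, n = 2). Lck per Cd3g was 2.11 and 1.84 in sham and 2.01 and 2.16 after PNX, again overlapping. Cd3e per Cd3g overlapped too, with 0.602 and 0.548 against 0.737 and 0.492. Cd8a per Cd8b1 overlapped as well, with 0.984 and 1.11 against 0.843 and 1.08. The groups did not overlap in the following ratios. Cd28 per Cd3g was 1.52 and 1.33 in sham and 1.08 and 1.09 after PNX, Cd3d per Cd3g was 0.772 and 0.749 against 0.708 and 0.717, Cd2 per Cd3g was 4.25 and 3.85 against 6.37 and 6.27, and Il7r per Cd3g was 3.51 and 3.11 against 3.76 and 4.06. Against 1000 counts of Ptprc, Cd3g went from 29.1 and 32.1 to 18.0 and 17.9, Cd28 from 44.3 and 42.6 to 19.4 and 19.4, and Cd2 from 124 and 123 to 115 and 112. These ratios are descriptions, without a test.

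**Figure D3:**
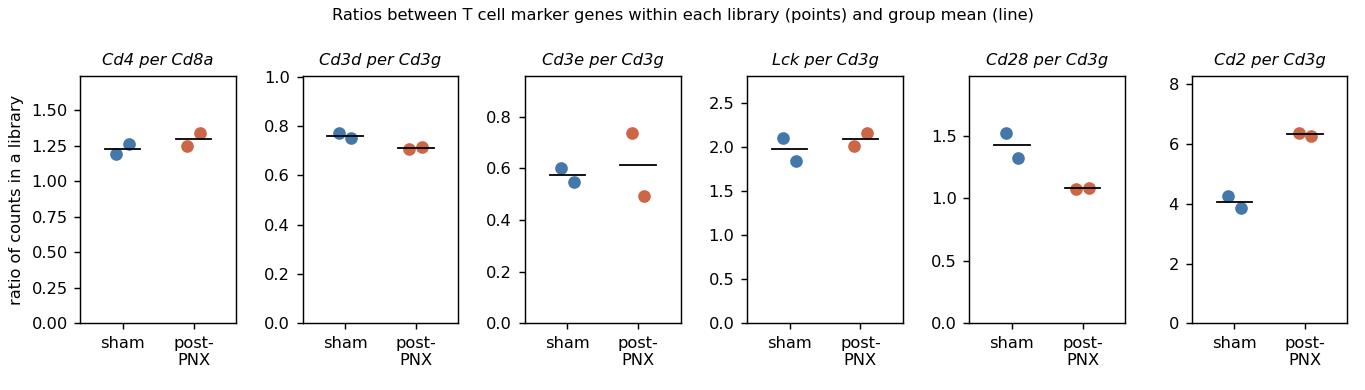
Ratio of the counts of 2 genes within each library (vertical axes, from 0) in sham (blue) and post-PNX (orange), with the group mean as a line. Cd4 per Cd8a, Cd3e per Cd3g and Lck per Cd3g overlap between groups, whereas Cd2 per Cd3g is higher in both post-PNX libraries (6.37 and 6.27 against 4.25 and 3.85).

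Other genes of T cells were mostly lower as well, but less uniformly. Of 20 genes of T cell receptor signalling, 13 were lower and 3 higher at the adjusted p threshold of edgeR's quasi-likelihood test, with a median log2 fold change of -0.53. Over all genes tested 27.8% were lower and 29.3% higher by this rule with TMM, shares that also stand beside the lists below. Such shares are not given for the other scalings. Themis, needed for T cell maturation, had the largest fall (-1.38), and the adaptor Trat1 (-1.10) and the surface receptor Cd6 (-1.08) also passed both thresholds. With scaling to endothelial genes the median was -0.23, and only Themis (-1.09) of the 20 passed both thresholds, with Trat1 at -0.81 and Cd6 at -0.79. Vav1, an exchange factor in many blood cells, had the largest rise (0.26), and Fyn, a kinase used in many cell types, had the highest counts (0.11, or 0.050 without a call with scaling to pan-leukocyte genes). Cd247, the zeta chain that works with the CD3 chains, chosen after its values were seen, was at -0.53.

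Among 15 genes of T cell costimulation and inhibition, 7 were lower and 2 higher, beside 27.8% and 29.3% of all genes, with a median of -0.34. With scaling to endothelial genes 4 were lower and 4 higher, with a median of -0.045. Cd96, a receptor of T and natural killer cells, fell most (-0.87), and Btla, an inhibitory receptor shared with B cells, had the highest counts (-0.55). Tnfrsf9, which activated T cells gain, rose past both thresholds (1.14) on few raw counts, 36 and 34 in sham and 76 and 66 after PNX. Which cells held the RNA of Tnfrsf9 was not tested. Of 13 transcription factors of the T lineage 7 were lower and 1 higher, with a median of -0.24 that turned to 0.052 with scaling to endothelial genes. Lef1, a factor of naive T cells, fell past both thresholds (log2 fold change -1.04, or -0.74 with scaling to endothelial genes). Its relative Tcf7, with the highest counts, was at -0.26, which became 0.037 with that scaling. Zbtb7b, which directs the CD4 lineage and is also used elsewhere, was the one factor called higher (0.14), and it lost the call with scaling to pan-leukocyte genes (0.080, edgeR adjusted p = 0.0737). Foxp3 of regulatory T cells (0.11, adjusted p = 0.194) and Gata3 (-0.07, adjusted p = 0.267), both chosen after their values were seen, did not pass edgeR's test with TMM. With scaling to endothelial genes both were called higher, Foxp3 at 0.40 (edgeR adjusted p = 2.09e-05) and Gata3 at 0.23 (edgeR adjusted p = 0.000424). The median of all genes tested was 0.30 with that scaling, above Gata3 and below Foxp3.

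Of 10 other surface genes of T cells, 5 were lower and 1 higher, beside 27.8% and 29.3% of all genes, with a median of -0.46. With scaling to endothelial genes 3 were lower and 1 higher, with a median of -0.16. Ccr7, the receptor that guides naive T cells, B cells and dendritic cells to lymph nodes, went from 2365 to 939 mean normalized counts, giving -1.33 ± 0.043 on the log2 scale (SE; edgeR adjusted p = 1.7e-36). Thy1, which fibroblasts and other cells also express, rose by 0.32. Of the chains of the T cell receptor itself, the symbols Trac, Trbc1 and Trbc2 were absent from the data used here. Other genes of these chains were not analysed.

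Ligands of these receptors, and chains that pair with the IL-7 receptor in the same cell, were mostly higher with TMM. Of 13 such genes in the tables, 10 were higher at the adjusted p threshold of edgeR's test, beside 29.3% of all genes, and none was lower (0 at an unadjusted p under 0.05), with a median log2 fold change of 0.15. With scaling to pan-leukocyte genes 6 were called higher, and 3 of the 13 (H2-D1, H2-Aa and H2-Eb1) lay below 0. Crlf2, which pairs with the IL-7 receptor alpha chain to bind thymic stromal lymphopoietin, had the largest rise (0.62, edgeR adjusted p = 2.0e-21). H2-D1, a class I molecule that CD8 binds, had the highest counts and a log2 fold change of 0.058, which became -0.0057 with scaling to pan-leukocyte genes. H2-Eb1, a class II chain, had the smallest change (0.033, adjusted p = 0.142) and was at -0.030 with that scaling.

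Markers of other cells that a CD31 selection can hold did not move in 1 direction. The 10 B cell genes were all lower at the adjusted p threshold, beside 27.8% of all genes, with a median log2 fold change of -0.79. Their summed levels were 10602 and 10452 normalized counts in sham against 6447 and 6291 after PNX. The kinase Blk had the largest fall (-0.98) and the inhibitory receptor Cd22 the smallest (-0.43). Counts of Cd3g per 1000 of the B cell gene Cd79a were 210.05 and 228 in sham and 226 and 243 after PNX and overlapped. Those of Cd4 overlapped too, at 202 and 225 against 174 and 216, whereas those of Cd8a, at 169 and 179 against 139 and 161, did not. Of 10 dendritic and plasmacytoid dendritic cell genes, 7 were lower and 1 higher (median -0.39), and the plasmacytoid gene Siglech (-1.25) and the chemokine receptor Ccr9 (-1.16) passed both thresholds. With scaling to endothelial genes 5 were lower and 3 higher (median -0.096) and none passed both thresholds, with Siglech at -0.95 and Ccr9 at -0.87. Itgax, with the highest counts of that list, was at 0.14, or 0.075 without a call (edgeR adjusted p = 0.0127) with scaling to pan-leukocyte genes. The part of these cells in the values of Cd4, Cd2 and Rag1 was not tested.

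Natural killer and cytotoxic genes gave 1 call in 10, Klrd1 (log2 fold change -0.56, edgeR adjusted p = 2.2e-05). Of all genes 27.8% were called lower and 29.3% higher. All 10 log2 fold changes lay below 0 with TMM, from -0.56 to -0.044. At an unadjusted p under 0.05 in edgeR's test, 3 were lower and 0 higher. The median of these 10 genes was -0.14, turned to 0.15 with scaling to endothelial genes, where the median of all genes tested was 0.30. With that scaling Klrd1 lost its call (-0.26, edgeR adjusted p = 0.0373) and 2 others were called higher. The summed levels of the 10 were 2298 and 2348 normalized counts in sham and 2157 and 2035 after PNX. The granzyme gene Gzma, with the highest counts, was at -0.061 (adjusted p = 0.438), or 0.23 with scaling to endothelial genes, and Nkg7, nearest to 0, was at -0.044. Of 8 genes of group 2 innate lymphoid cells, which also carry Il7r, 4 were higher and 1 lower (median 0.61). The cytokine gene Il5 (1.06, or 0.99 with scaling to pan-leukocyte genes) and Rnf128 (1.67), a ubiquitin ligase also made by other cells, passed both thresholds with TMM, Il17rb fell (-0.73), and Hlf, with the highest counts, was at 0.045 (adjusted p = 0.328), or -0.018 with scaling to pan-leukocyte genes.

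Macrophage and monocyte genes rose, 6 of 6 at the adjusted p threshold, beside 29.3% of all genes, with a median log2 fold change of 1.82. Their summed levels went from 20178 and 19888 normalized counts in sham to 46746 and 46951 after PNX. The complement genes C1qa, C1qb and C1qc passed both thresholds, with C1qb at 2.98, Mrc1, with the highest counts, was at 0.70 and Csf1r, with the smallest rise, at 0.68. The 9 pan-leukocyte genes had a median of 0.16, with 5 higher and 2 lower and with summed levels of 70677 and 70273 against 73699 and 74491. In that list Arhgdib rose most (0.33), Lcp1 had the highest counts (0.19) and Cytip fell (-0.56). Of the 12 endothelial genes 11 were lower, beside 27.8% of all genes, and Pecam1 (-0.0087) was not called. Eng fell most (-0.54), Cdh5, with the highest counts, was at -0.22 (or 0.075 with scaling to these genes), and the list had summed levels of 573880 and 580090 against 478020 and 480050. No gene of these lists was at 0 in every library.

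**Figure D4:**
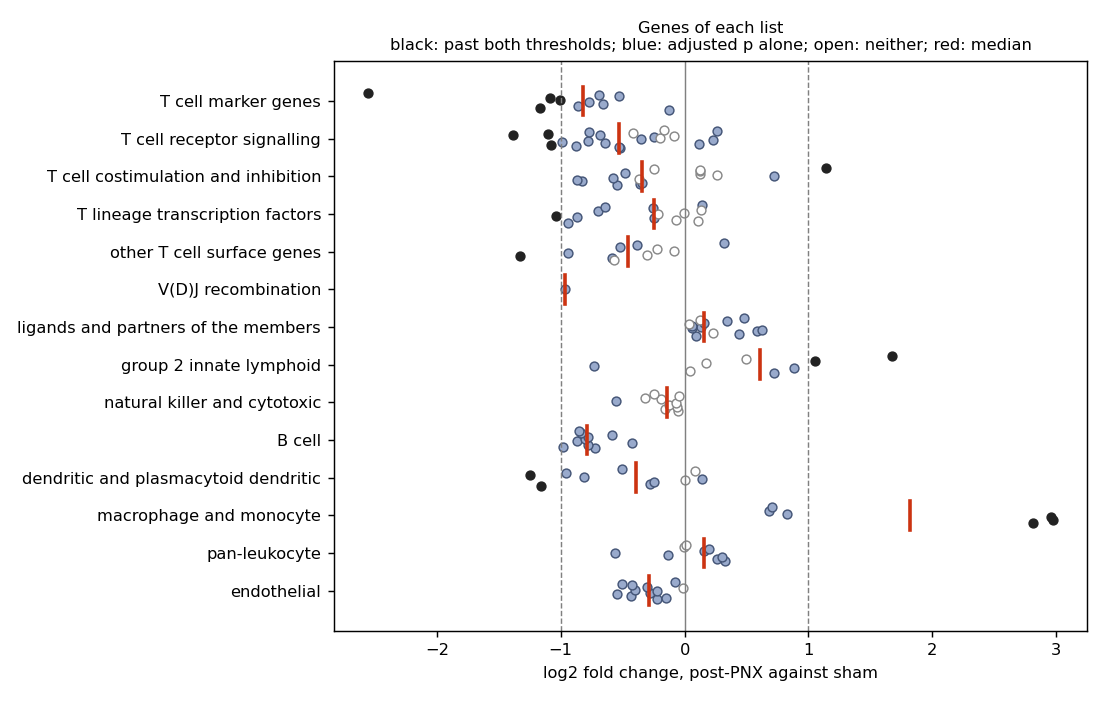
Log2 fold change of post-PNX against sham (horizontal axis, dashed lines at -1 and 1) for each tested gene of each list, filled black where it passed both thresholds, blue where it passed the adjusted p alone and open where it passed neither, with the median in red. T cell marker genes (median -0.82) and B cell genes (-0.79) lie to the left of 0, natural killer genes (-0.14) near it and macrophage genes (1.82) to the right.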

How the data were processed

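RNA of CD31-selected lung cells was sequenced in 2 sham and 2 post-PNX libraries, each pooled from 2 mice. According to the study's methods and the submitters' processing notes, a stranded mRNA kit and paired ends were used and reads were aligned to mm10, with STAR named among the tools; versions and the counting program are not given in the sources used here. For each library the authors deposited raw counts on 33068 RefSeq transcripts, with FPKM and TPM values beside them. The deposited FPKM values were not used, and the deposited TPM values served to compare levels between genes per length. The TPM denominator includes every transcript, also those that share exons. Each of 24063 symbols was represented by its transcript with most counts over the 4 libraries (ties broken by identifier).

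The test was run with edgeR 4.0.16 in R 4.3.3 (filterByExpr, TMM factors from 0.9985 to 1.0026, quasi-likelihood F test without covariates, Benjamini-Hochberg adjustment over 16208 genes). The standard error is the log2 fold change divided by the square root of F. Thresholds are those of the study, an adjusted p under 0.01 and a log2 fold change beyond 1. For display, counts were divided by the TMM-adjusted library size and multiplied by its mean over libraries (normalized counts). Replicate libraries differed by a mean chi-square per gene of 1.77 and 1.53, against 134 and 119 between groups, so none was a copy. Counting error alone would give about 1, so these values do not tell separate pools from repeat libraries of the same RNA. The labels do not say more on replication than pooling, and p-values measure the spread between these libraries. The steps were run on simulated counts that gave every gene the same spread. That run does not cover spread that differs between genes, nor changes as small as that of Cd2. The members and all gene lists were chosen with earlier results of these data known, including that T and B cell markers were lower after PNX. Named genes are all members and, from each list, the genes with the highest counts, the largest rise and the largest fall, and those past both thresholds; others are said to have been chosen later. A few genes that this rule names are not reported here. Listed genes without a row in the tables used here were Cd58 and Adgre1. Coordinates and promoter sequences are those of RefSeq on GRCm38.p6, with coordinates for all 10 members and promoter windows for 7. Alternatives were other scalings, filters, DESeq2 1.42.0, edgeR's glmTreat, counts summed over transcripts, a replicate block, another adjusted p and each library left out.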

Additional observations from a re-analysis of the deposited data

How the results depend on the processing

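Over the 13 alternatives in which a log2 fold change was refitted, 120 of 129 values for the 10 genes kept their direction and their side of the adjusted p threshold. The exceptions were Cd3e with scaling to endothelial genes and Cd2, which lost its call in 7 alternatives and reversed in 1, to 0.17 with scaling to endothelial genes. Rag1 could not be fitted when genes had to average 50 counts. Scaling to endothelial genes gave 1 T cell marker gene lower past both thresholds, 1 higher at adjusted p alone (Cd2), a median of -0.52, and 73 of all genes lower. With that scaling 1400 of all genes were higher, against 957 higher and 269 lower with TMM. The median of the T cell marker genes was -0.88 with scaling to pan-leukocyte genes and -0.77 with the filter of 50 counts, which left 9 of them and called 160 of all genes lower. edgeR's glmTreat, which tests whether the change itself exceeds the fold threshold, left 1 T cell marker gene (Rag1), 604 higher and 39 lower genes.

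With 1 library omitted at a time, the median ranged from -0.88 to -0.77, the T cell marker genes past both thresholds from 3 to 4 and those past the adjusted p from 9 to 9, since Cd2 lost its call each time; the lone library of a group is then assumed to vary like the rest. Libraries of the groups share replicate numbers but come from different mice, and the deviations of same-numbered libraries correlated at 0.024 over 13402 genes, so the numbers do not pair them. With the replicate number as a block 4 of the genes passed both thresholds and the median was -0.82. Depth limits Rag1 most, with 5 and 9 counts after PNX.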
